A study of Homo sapiens with 2 samples.

Results

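The genes that write, erase and read N6-methyladenosine (m6A), the most common internal methylation of messenger RNA, were examined in 468 breast cancer cells after knockdown of the antisense RNA THAP7-AS1. The group was chosen by gene name and role and comprises 10 genes. They are the writers METTL3, METTL14, WTAP and VIRMA, the erasers ALKBH5 and FTO, and the readers YTHDF1, YTHDF2, YTHDF3 and YTHDC1. All 10 were found by symbol among the 13017 genes that both tables list.

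The study holds 2 RNA sequencing libraries of an epithelioid line called 468 in the labels, cultured in L15 medium containing serum. The knockdown library came from cells transfected with a Smart Silencer against THAP7-AS1, a commercial blend of oligonucleotides that silence an RNA. The control library came from cells labelled si-NC. Samples were taken 48 h after transfection. The groups rest on the genotype label, because the treatment label is the same for both. THAP7-AS1 itself is not analysed here, and its knockdown was therefore not checked from its own level. Each group is a single library, so no value below has a replicate, a test or an error between cultures.

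In the knockdown library the eraser FTO was higher, at 3.78 FPKM (a fragment count scaled by gene length and by library depth) against 1.69 in the control library, a ratio of 2.23. The reader YTHDF2 was also higher, at 16.4 against 11.6 FPKM, a ratio of 1.41. The other eraser, ALKBH5, was lower, at 28.3 against 34.2 FPKM, a ratio of 0.827. The remaining 7 genes had ratios between 0.870 and 1.26. In the group 5 genes were higher and 5 lower. Of all genes with a mean of 1 FPKM or more, 53.1% were higher, so this split is no result about the group.

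m6A is placed on nascent RNA in the nucleus by a complex whose core is a heterodimer of METTL3, the catalytic subunit, and METTL14, which helps to bind the RNA. WTAP holds the heterodimer in nuclear speckles, and VIRMA is a large scaffold that joins the accessory subunits. FTO and ALKBH5 are iron- and oxoglutarate-dependent dioxygenases that remove methyl groups from RNA. YTH domain proteins bind the mark, YTHDF1, YTHDF2 and YTHDF3 in the cytoplasm and YTHDC1 in the nucleus. The methylation itself was not measured in these libraries, which give only the levels of the mRNAs of these genes.

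Upstream sequence is shown for the genes with the largest differences, FTO and YTHDF2 among those higher and ALKBH5 among those lower. The letters are those of the RefSeq promoter table (build GRCh38.p14, another build than that of the expression tables), written 5′ to 3′ on the strand of the gene and ended before the first annotated base of the gene. Capitals mark the GC box GGGCGG on either strand.
FTO, chr16:53703906-53703962, plus strand: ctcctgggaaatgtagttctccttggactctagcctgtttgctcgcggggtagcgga
YTHDF2, chr1:28736374-28736623, plus strand: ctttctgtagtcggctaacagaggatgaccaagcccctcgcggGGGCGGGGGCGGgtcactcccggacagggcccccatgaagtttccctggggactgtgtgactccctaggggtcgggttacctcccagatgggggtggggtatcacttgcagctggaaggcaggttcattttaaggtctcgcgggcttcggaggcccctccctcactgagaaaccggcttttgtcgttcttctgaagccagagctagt
ALKBH5, chr17:18183578-18183827, plus strand: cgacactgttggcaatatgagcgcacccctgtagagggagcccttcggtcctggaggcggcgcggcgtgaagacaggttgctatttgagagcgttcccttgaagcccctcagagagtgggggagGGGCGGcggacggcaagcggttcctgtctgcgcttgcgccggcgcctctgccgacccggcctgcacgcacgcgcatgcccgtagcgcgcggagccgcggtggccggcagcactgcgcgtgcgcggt

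Motifs were sought on both strands in the first 250 bases of each promoter window. They were the GC box (GGGCGG), the CCAAT box (CCAAT), the ETS core (CCGGAA), the TATA box (TATAAA) and the cyclic AMP response element (TGACGTCA), and none of these 5 contains another. For FTO only the 57 bases shown lie before the first annotated base of the gene, and the rest lie within it. All 250 bases together held 0 of the motifs, which is therefore not a statement about upstream sequence alone. The YTHDF2 window shown held 2 GC boxes and the ALKBH5 window 1, and no other motif of the 5. For comparison, 42.6% of 35116 promoters held a GC box, 32.01% a CCAAT box and 14.5% the ETS core. TATA boxes were in 10.7% and cyclic AMP response elements in 1.65%. A second YTHDF2 start in the same table had 4 GC boxes and 1 CCAAT box in its window.

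Among the 4 writers, no gene reached a log2 ratio of 0.32 in either direction, the smaller of the thresholds of size used here. Of all genes 18.6% did, so this count is no result about the writers. Log2 ratios are of knockdown to control, each FPKM increased by 1. METTL14 was at 4.38 FPKM in the knockdown cells and 3.48 in the control cells, a plain ratio of 1.26 and a log2 ratio of 0.27. METTL3 was at 4.38 against 5.04 FPKM, a plain ratio of 0.870 and a log2 ratio of -0.17. Both differences are about the size of the counting error estimated from depth or smaller. That error was 0.32 for METTL14, whose log2 ratio without the added 1 was 0.33, and 0.25 for METTL3, at -0.20. It rests on the median coding length, which for METTL14 was 927 bases over 3 coding transcripts of 485 to 6669 bases. A longer transcript would give a smaller error, so its size is uncertain. In the control library the FPKM of METTL3 was 1.45 times that of METTL14, and in the knockdown library the ratio was 0.9995.

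WTAP, the most abundant writer, was at 13.2 against 14.4 FPKM, a plain ratio of 0.913 and a log2 ratio of -0.12. VIRMA was at 3.63 against 3.31 FPKM, a plain ratio of 1.09 and a log2 ratio of 0.10. WTAP stood at 3.005 times METTL3 with the knockdown and 2.86 times without it. Summed over the 4 writers, the level was 25.6 FPKM with the knockdown and 26.3 without it, with METTL14 and VIRMA higher and METTL3 and WTAP lower.

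The labels do not say whether the libraries keep strand, so reads of a gene and of exons opposite to it cannot be told apart. In GENCODE release 29, 6.58% of the exon bases of METTL3 lie opposite exons of TOX4, an HMG box gene, and TOX4 was at 5.82 FPKM with the knockdown and 4.72 without it. For WTAP, 4.64% of exon bases lie opposite an entry named SOD2, the symbol of the mitochondrial superoxide dismutase gene. That entry was at 4.60 FPKM with the knockdown and 4.75 without it. Another entry of the same name, opposite 2.17% of the exon bases of WTAP, has no value here. METTL14 and VIRMA share no exon bases with another gene in that annotation.

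**Figure D1:**
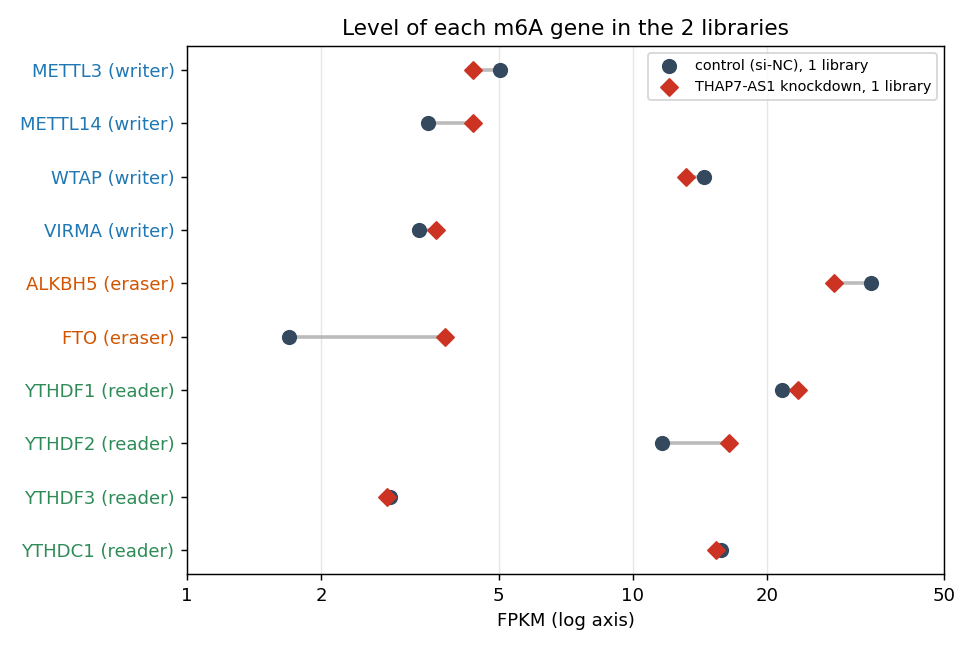
FPKM of each of the 10 genes (log axis) in the control library (circles) and in the knockdown library (diamonds), 1 library each, joined by a grey line, with gene names coloured by role. The longest lines belong to FTO, at 1.69 and 3.78 FPKM, and YTHDF2, at 11.6 and 16.4, both with the knockdown library on the right.

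The erasers differed in opposite directions. FTO, which also acts on a cap-adjacent methylated adenosine, had the largest difference of the group, with a log2 ratio of 0.83, a 1.78-fold higher value on the FPKM + 1 scale. Without the added 1 the log2 ratio was 1.16. ALKBH5, a nuclear demethylase and the most abundant gene of the group in both libraries, had a log2 ratio of -0.27. The FPKM of ALKBH5 was 20.2 times that of FTO in the control library and 7.48 times in the knockdown library. The sum of both erasers, most of it ALKBH5, was 32.1 FPKM with the knockdown and 35.9 without it.

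FTO is a long gene with many transcript models, and the deposited value depends on how reads were shared among them. GENCODE release 29 lists 23 FTO transcripts, of which 13 are coding, with lengths from 210 to 11766 bases and a median of 1852. At the depth estimated from the lowest values in the tables, FPKM at the median length corresponds to about 78.1 fragments with the knockdown and 34.3 without it. The counting error of the log2 ratio without the added 1 would then be 0.30. This error covers counting only, and not the assignment of reads to transcripts or the spread between cultures. For ALKBH5, with a median coding length of 2177 bases, the same reckoning gave 687 and 815 fragments and a counting error of 0.075. An antisense gene, AC087164.1, lies opposite 11.2% of the exon bases of ALKBH5, and its part in the ALKBH5 value was not tested.

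The neighbours of FTO were read after its value had been seen. RPGRIP1L, a ciliary transition zone gene that precedes FTO on the chromosome, was at 2.74 FPKM with the knockdown and 2.27 without it, a ratio of 1.21. IRX3, a homeobox gene that follows FTO, was at 81.9 against 64.5 FPKM, a ratio of 1.27. Both neighbours were thus higher in the knockdown library, by smaller ratios than FTO. Of all genes 53.1% were higher, and a shared rise of the region was not tested. GMEB1, a neighbour of YTHDF2, had a ratio of 0.994, beside 1.41 for YTHDF2. LLGL1, a polarity gene that follows ALKBH5, was at 4.88 against 5.001 FPKM.

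Among the readers, YTHDF2, which recruits the CCR4-NOT deadenylase to methylated mRNA, was the gene that stood apart, with a log2 ratio of 0.46 on the FPKM + 1 scale. YTHDF1, best known for promoting translation of methylated mRNA, was at 23.5 against 21.7 FPKM, a plain ratio of 1.08 and a log2 ratio of 0.11. YTHDF3, a partner of both, was at 2.81 against 2.85 FPKM, a plain ratio of 0.985 and a log2 ratio of -0.02. YTHDC1, which links the mark to splicing and nuclear export, was at 15.4 against 15.8 FPKM, a plain ratio of 0.976 and a log2 ratio of -0.03. The readers summed to 58.2 FPKM with the knockdown and 51.98 without it. YTHDF2 accounted for 4.78 FPKM of that difference and YTHDF1 for 1.83.

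The composition of the YTHDF trio differed accordingly. YTHDF1 made up 59.9% of the summed FPKM of the trio in the control library and 54.98% in the knockdown library. YTHDF2 made up 32.2% and 38.4%, and YTHDF3 7.88% and 6.57%. YTHDF1 was thus the leading reader of the trio in both libraries, at 1.86 times YTHDF2 in the control library and 1.43 times in the knockdown library.

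**Figure D2:**
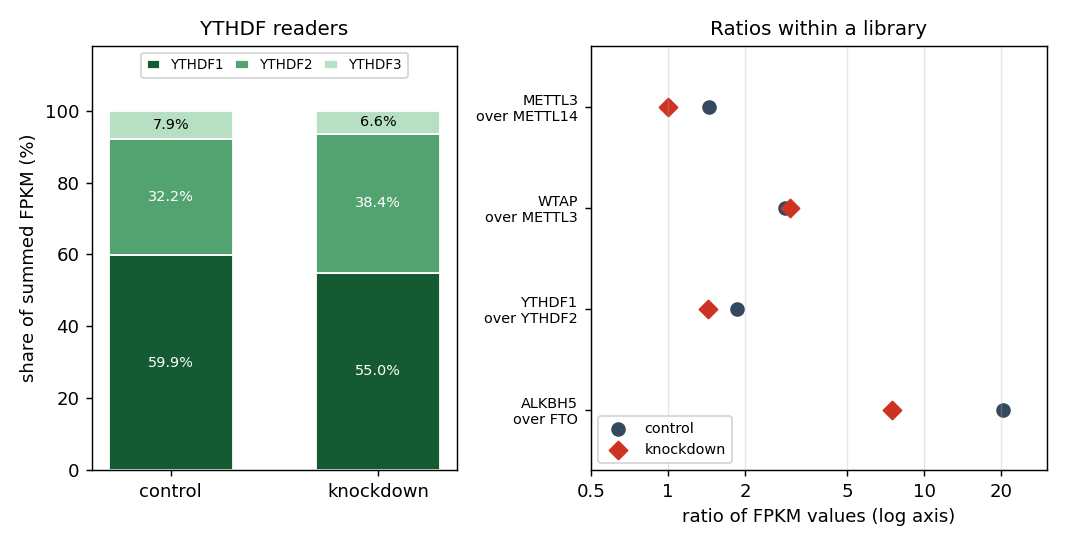
Left, share of YTHDF1, YTHDF2 and YTHDF3 in their summed FPKM (percent) for each library. Right, ratios of FPKM values between 2 genes within the control library (circles) and the knockdown library (diamonds) on a log axis, where ALKBH5 over FTO goes from 20.2 to 7.48 and METTL3 over METTL14 from 1.45 to 0.9995.

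YTHDF paralogs are alike in their YTH domains, so the sequences were compared to see whether short reads could pass between them. The most alike stretch of 90 bases in the coding sequences of YTHDF1 and YTHDF2 (GENCODE release 29) is shown, with positions counted from the first base of the start codon and capitals marking the bases that differ.
YTHDF1, coding bases 1132 to 1221: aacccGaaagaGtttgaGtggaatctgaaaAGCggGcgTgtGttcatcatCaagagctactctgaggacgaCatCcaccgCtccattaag
YTHDF2, coding bases 1195 to 1284: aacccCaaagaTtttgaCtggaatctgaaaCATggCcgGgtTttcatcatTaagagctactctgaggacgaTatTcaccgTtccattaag

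These stretches are identical at 77 of 90 bases, and the longest unbroken match within them is 20 bases. The most alike stretches of the same length agreed at 75 bases between YTHDF1 and YTHDF3 and at 76 between YTHDF2 and YTHDF3. Of all words of 50 bases in the annotated transcripts, 0 of 3299 from YTHDF1 and 0 of 7117 from YTHDC1 occurred in a transcript of any other gene. In YTHDF2, 352 of 4039 words (8.72%) were shared, all with the pseudogene YTHDF2P1. Reads from that stretch could be placed at either locus, and YTHDF2P1 is not analysed here, so the YTHDF2 value is uncertain to that extent. FTO shared 2.89% of its words with other genes, METTL3 4.93%, WTAP 7.88% and ALKBH5 9.82%, while METTL14, VIRMA and YTHDF3 shared less than any of these. All 308 shared words of ALKBH5 were with AC087164.1, and 292 of the 313 of METTL3 were with TOX4. AC087164.1 and TOX4 lie opposite exons of these genes, as given above, so these shares need not mean similar sequence at another locus. At the median coding length of 2719 bases, the YTHDF2 values correspond to about 498 and 347 fragments, with a counting error of 0.10 beside a log2 ratio of 0.50 without the added 1.

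The order of the 10 levels was partly the same in both libraries. ALKBH5 ranked 1 and YTHDF1 ranked 2 in each. YTHDF2 went from rank 5 in the control library to rank 3 in the knockdown library, past YTHDC1 and WTAP. METTL3 and METTL14 exchanged ranks 6 and 7. FTO went from rank 10 to rank 8, past VIRMA and YTHDF3. The levels of METTL3 and METTL14 in the knockdown library could not be separated at the precision printed, and with 1 library per group no other neighbours in this order can be shown to differ.

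The group was next set beside all genes. Of the 10925 genes whose mean FPKM was 1 or more, 1.27% differed by at least 2-fold on the FPKM + 1 scale. In the knockdown library 0.604% were higher and 0.668% lower by that much, and 0 of the 10 m6A genes were. A count of 0 of 10 is near that background and is no result about the group. With 0.1 FPKM or none added in place of 1, FTO passed 2-fold and the count became 1 of 10. The background rose as well, to 140 genes higher and 126 lower of 10925 with 0.1 added. With none added it was not counted. A log2 ratio of at least 0.32 in size was seen in 18.6% of the genes, 10.7% higher and 7.89% lower, and in 2 of the 10, FTO and YTHDF2, both higher. A share of 2 in 10 is near that background and is no result about the group. The median log2 ratio of the group was 0.04, and that of all genes kept was 0.02.

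For single genes, the difference was set beside those of genes at a similar level, with a mean FPKM within 2-fold of theirs. At least as large a difference in either direction was found in 2.83% of 4131 genes around the level of FTO and in 8.67% of 3935 genes around that of YTHDF2. For ALKBH5 the share was 21.4% of 2206 genes, and for METTL14 28.1% of 4648. For METTL3 the share was 46.2%, for WTAP 54.0%, for YTHDF1 56.6%, for VIRMA 65.2%, for YTHDC1 86.4% and for YTHDF3 94.9%. FTO therefore lay toward the edge of the genes at its level, and the last 6 lay among the bulk. These shares rank genes within 2 libraries and are not p-values.

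**Figure D3:**
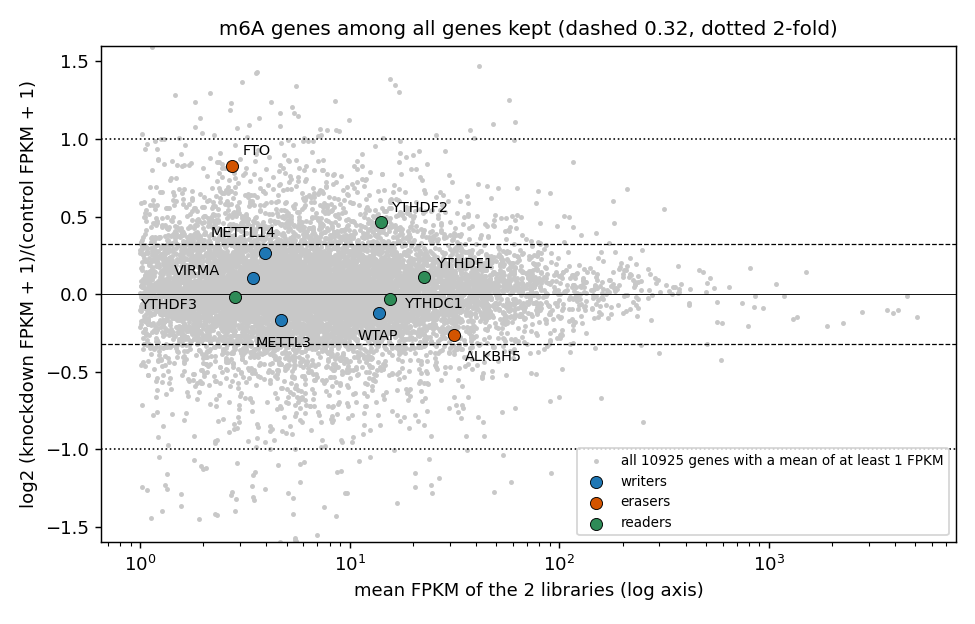
Log2 ratio of knockdown to control on the FPKM + 1 scale against the mean FPKM (log axis) for 10925 genes (grey) and the 10 m6A genes by role, with dashed lines at log2 ratios of 0.32 and -0.32 and dotted lines at 2-fold; 32 genes lie outside the vertical range. FTO at 0.83 and YTHDF2 at 0.46 lie above the upper dashed line and the other 8 genes between the dashed lines.

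Further subunits of the writer complex were followed from a list of 4. CBLL1, the HAKAI ubiquitin ligase of the complex, was at 3.97 against 5.29 FPKM. Its log2 ratio of -0.34 was the 1 of 4 past 0.32 in size, beside 18.6% of all genes. RBM15, which guides the complex to RNA, was at 7.37 against 8.57 FPKM, and its paralog RBM15B at 14.4 against 13.6. ZC3H13, which anchors the complex in the nucleus, was at 12.04 against 10.54 FPKM. As with the core writers, 2 were higher and 2 lower, with a median log2 ratio of -0.06. Of all genes 53.1% were higher, with a median of 0.02.

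Of 6 other m6A methyltransferase genes, 2 were higher after knockdown and 4 lower, and their median log2 ratio was -0.08. For all genes the median was 0.02 and 53.1% were higher, and so few genes show no lean of the list. METTL16, which methylates U6 RNA and the mRNA of the methionine adenosyltransferase gene MAT2A, was at 1.53 FPKM against 2.44, a log2 ratio of -0.44. It was the 1 of 6 past a log2 ratio of 0.32 in size, near the 18.6% of all genes. METTL5, the methyltransferase of 18S ribosomal RNA, was at 19.5 against 18.5 FPKM and its stabilising partner TRMT112 at 27.8 against 32.6. ZCCHC4, which methylates 28S ribosomal RNA, was at 1.67 against 1.70 FPKM, the cap methyltransferase gene PCIF1 at 10.03 against 11.2, and METTL4 at 4.93 against 4.07.

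Of 20 other readers and m6A-binding proteins, 19 were in the tables and all of these passed the filter, 13 higher and 6 lower, with a median log2 ratio of 0.05. Of all genes, 53.1% were higher, with a median of 0.02. G3BP2, a stress granule protein, was at 22.4 FPKM against 12.6, a log2 ratio of 0.78, and its paralog G3BP1 was at 18.0 against 15.4. IGF2BP2, which stabilises methylated mRNA, was at 9.10 against 11.8 FPKM, a log2 ratio of -0.34. FXR2, of the fragile X family, was at 16.1 against 12.7 FPKM, a log2 ratio of 0.33. G3BP2, FXR2 and IGF2BP2 were past a log2 ratio of 0.32 in size, 3 of 19 beside the background of 18.6%.

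YTHDF2 acts through deadenylation and through cleavage by RNase P and MRP, and 27 genes of these routes passed the filter. In the knockdown library 16 were higher and 11 lower, with a median log2 ratio of 0.08. For all genes the median was 0.02 and 53.1% were higher. Past 0.32 in size were 5 of 27, 4 higher and 1 lower, near the 18.6% of all genes. TOB1, an adaptor of the CCR4-NOT complex, was at 24.96 against 16.2 FPKM, a log2 ratio of 0.59. The RNase P subunit genes RPP38 and POP5 were at 13.9 against 9.55 and 5.02 against 3.34 FPKM. CNOT9, a subunit of CCR4-NOT, was at 8.86 against 12.7 FPKM, a log2 ratio of -0.47. Of 6 partners of YTHDC1 and export factors, 4 were higher and 2 lower, where 53.1% of all genes were higher, and 0 were past 0.32 in size, against 18.6% of all genes. In that list CPSF6 was at 13.3 against 12.1 FPKM, SRSF3 at 31.9 against 28.98, the export receptor gene NXF1 at 11.7 against 12.8 and SAFB at 32.04 against 30.06.

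The methyl donor of the writers, S-adenosylmethionine, is made by the MAT2A enzyme, and 12 of 13 genes of its supply and recycling passed the filter. They were divided into 5 higher and 7 lower, with a median log2 ratio of -0.02, beside 53.1% higher and a median of 0.02 for all genes. MTAP, which salvages methylthioadenosine, was at 1.18 FPKM against 1.77, a log2 ratio of -0.34, and was the 1 of 12 past 0.32 in size, beside 18.6% of all genes. AHCYL1 was at 80.6 against 99.3 FPKM, the methionine synthase reductase gene MTRR at 6.03 against 7.54 and MAT2A at 34.1 against 37.2.

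**Figure D4:**
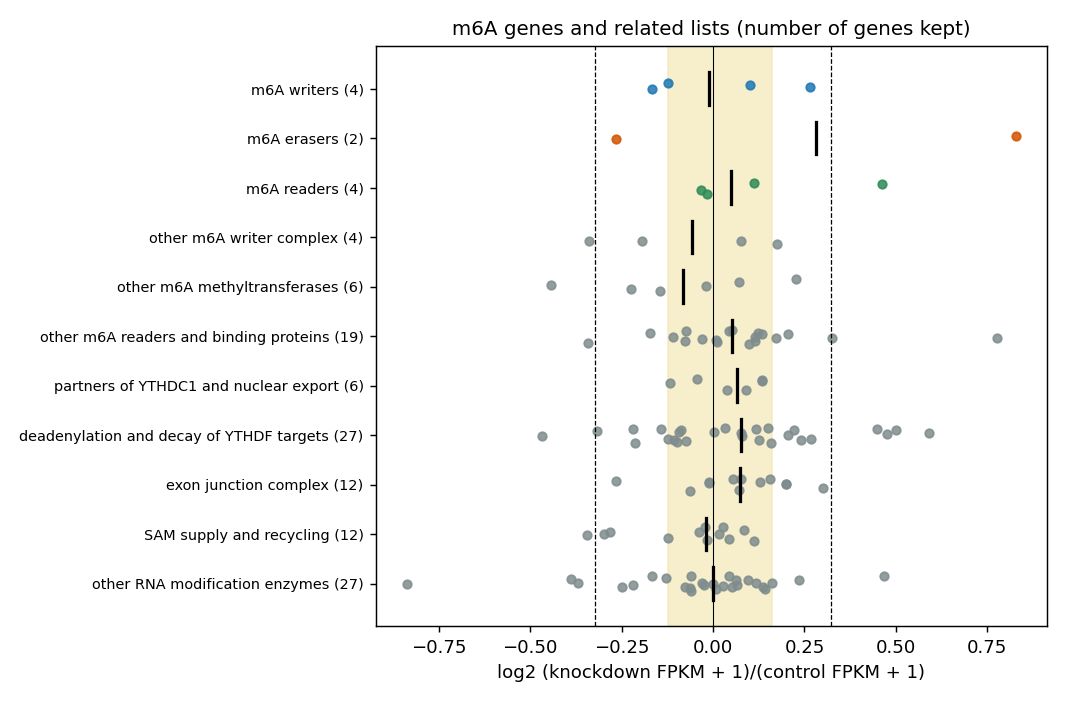
Log2 ratio on the FPKM + 1 scale for every gene kept in the m6A groups and related lists (points, spread vertically for visibility), with the list median as a black bar, dashed lines at 0.32 and -0.32 and the range between the quartiles of all genes shaded. The medians of the writers and readers, -0.01 and 0.05, lie inside the shading, and the median of the 2 erasers, 0.28, lies between points at -0.27 and 0.83.

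As a check of the label, the epithelial markers were present in both libraries, 9 of 9 in the tables with summed levels of 1968 FPKM with the knockdown and 1850 without it. KRT19 made up most of these sums, at 1106 and 1057 FPKM. CDH1 was lower, at 12.4 against 17.1 FPKM, a log2 ratio of -0.43, as was ESRP1, at 14.6 against 16.6, and CLDN4 was near 0, at 0.233 and 0.303. Fibroblast markers (2 of 6 listed) summed to 0.878 and 0.874 FPKM, leukocyte markers (2 of 6) to 11.5 and 10.9, most of it CD14, and the endothelial marker KDR (1 of 4) was at 1.07 and 1.15. All FPKM values of a library added up to 213442 with the knockdown and 213888 without it, and the depth was estimated at 11100000 and 10900000 fragments. The same narrow window of values was used for both libraries, so the likeness of these 2 depths is no result. In bulk RNA, fewer cells that express a gene and less RNA per cell cannot be told apart.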

How the data were processed

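RNA of 2 cultures was sequenced, 1 library per group. The deposited tables give FPKM per gene as computed by the authors, per the file headers. HISAT2 2.0.5, StringTie and cutadapt, and hg19 as build, are named in the submitters' processing notes. The annotation, the strandedness and the read length are not stated there. Identifiers were matched to symbols without their version, which gave a symbol to 12903 of 13017 genes.

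Ratios were computed as log2((knockdown FPKM + 1)/(control FPKM + 1)) for the 10925 genes whose mean FPKM was 1 or more. These fold values understate the change of low genes, and plain FPKM ratios of the members are given beside them. With 1 library per group no test was made, and log2 ratios of 0.32 and 1 in size (2-fold) served as rules of size. The tables hold no counts. Depth was estimated from genes with 1 transcript in GENCODE release 29, whose FPKM times length gathered between 80 and 95 (14 and 10 genes), a window set after the values had been seen. The median within the window was taken as the value of 1 fragment, which was not checked. The window bounds the depth estimate in both libraries, and all counting errors rest on that estimate. Fragments per gene were reckoned from this depth and the median length of the coding transcripts.

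All 10 members are named, with all genes of the 2 writer lists and up to 4 genes with the largest ratios of each other list. The members and lists were chosen with earlier results of these data known. No gene of like pattern is named, since 2 libraries give 1 difference per gene. Alternatives changed the added FPKM, the filter and the scaling. Python 3.11.15, numpy 2.4.6, pandas 2.3.3 and matplotlib 3.10.9 were used. The ratio code was run on simulated counts without spread between cultures, with changes planted only in genes at 5 FPKM or more. That run checks the code and not the values reported here.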

Additional observations from a re-analysis of the deposited data

How the results depend on the processing

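Of 70 values of the 10 members under 7 alternatives, 67 moved by less than the spread of genes at the same level (an SD based on the median absolute deviation), none changed sign, and 3 moved by more, all of them of FTO. Its log2 ratio of 0.83 became 1.11 with 0.1 FPKM added, 1.16 with none added, a setting chosen after seeing the data, and 0.39 with 5 added, because a larger added value shrinks low genes. YTHDF2 ranged from 0.36 to 0.50. The number of members with a log2 ratio of at least 0.32 in size was 2, and 3 with 0.1 FPKM or none added, when METTL14 joined at 0.33; with 0.1 added, 25.3% of all genes were past it. Under quantile normalization the shares of the YTHDF trio moved by less than their estimated counting error. The members' median ran from 0.02 to 0.05. Past 2-fold, 66 genes were higher and 73 lower, against 140 and 126 with 0.1 FPKM added, 19 and 14 with 5 added, and 31 and 36 among genes whose mean was 5 FPKM or more. Past a log2 ratio of 0.32 in size, 1167 were higher and 862 lower, against 1585 and 1183 with 0.1 added, 1047 and 969 under quantile normalization, 471 and 392 with 5 added and 622 and 499 among genes whose mean was 5 FPKM or more, which are fewer. No paired analysis was possible because each group has 1 library. Of the 10 members, METTL14 and FTO had the largest estimated counting errors, 0.32 and 0.30. These errors depend on the transcript length assumed as well as on depth and level.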

Other observations

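Other enzymes that modify RNA were measured as well. Of 27 genes kept, 14 were higher and 13 lower after knockdown, with a median log2 ratio of 0.00074. Among all genes 53.1% were higher, and the median was 0.02. PUS1, a pseudouridine synthase, was at 1.74 FPKM against 3.89, a log2 ratio of -0.84, the largest difference of this list and similar in size to that of FTO but in the other direction. NSUN6, a cytosine methyltransferase, was at 2.76 against 1.72 FPKM and NSUN2, another of that family, at 27.3 against 35.6. CMTR2, a cap methyltransferase, was at 1.99 against 2.91 FPKM. Past a log2 ratio of 0.32 in size were 1 higher and 3 lower, beside 10.7% and 7.89% of all genes.

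The exon junction complex, which keeps m6A away from the neighbourhood of splice junctions, had 12 genes kept, 8 higher and 4 lower with a median log2 ratio of 0.07, and 0 past 0.32 in size. Of all genes, 53.1% were higher and 18.6% were past 0.32 in size. CASC3 was at 14.3 FPKM against 11.4 and PNN at 93.1 against 112, while SAP18 was at 37.4 against 32.5 and ACIN1 at 29.2 against 25.3.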
